A study of Mus musculus with 96 samples.

Results

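The 8 integrin subunits of the panel, Itga1, Itga2, Itga3, Itga5, Itga6, Itgae, Itgb1 and Itgb3, make up 8 of its 96 assays and were chosen by name, 6 by gene symbol and 2 by the CD name of the protein (cd49c for Itga3 and cd49f for Itga6). They were measured in 96 single cells of 1 group. Uteri of mice at postnatal day 7 were dissociated with collagenase, and cells stained for CD326 (EpCAM, an adhesion protein of epithelia) were sorted singly, with no treatment and no second group. Each cell was assayed by quantitative PCR for 96 transcripts. The labels name no strain, number of animals or pooling, so the 96 cells are not replicates of a condition. Shares are given with exact (Clopper-Pearson) 95% intervals, which cover counting error only, and no p-value was computed.

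The value recorded for each assay is the cycle threshold (Ct), which is lower when more template is present. A transcript was counted as detected at a Ct below 28, and its level is 28 minus Ct, so that 1 unit stands for 1 PCR cycle and, if each cycle doubles the product, for a factor of 2. Amplification efficiency differs between assays, so levels of different genes can be set side by side only in rough order. A level of 0 marks the limit of detection and not the absence of a transcript.

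Integrins are cell surface receptors made of 1 alpha and 1 beta subunit. They bind epithelial cells to the extracellular matrix, mainly the basement membrane, and link it to the actin cytoskeleton. Itgb1 encodes the beta subunit with the most partners. Among those measured, it pairs with the products of Itga3 and Itga6 in laminin receptors, of Itga1 and Itga2 in collagen receptors and of Itga5 in the fibronectin receptor. The Itga6 product can also pair with the Itgb4 product in hemidesmosomes, the anchors of stratified epithelia. The Itgae product (CD103) pairs with that of Itgb7, is known mainly from lymphocytes within epithelia and binds E-cadherin. The Itgb3 product pairs with those of Itgav and Itga2b, in endothelium, platelets and other cells. Itgb4, Itgb7, Itgav and Itga2b were not among the assays of the panel.

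The cells carried epithelial transcripts, but transcripts counted as markers of other cell types were also widespread. All 6 epithelial markers were found in most cells, from Epcam in 77.1% (74 of 96, interval 67.4 to 85.0%) to the keratin gene Krt19 in 96.9%. Of the markers of other types, the leukocyte gene Ptprc was found in 59.4% of cells, the endothelial genes Pecam1, Cd34 and Eng in 96.9%, 51.0% and 13.5%, and the stromal genes Thy1 and Vim in 17.7% and 7.29%. Mme, Nt5e and sma, listed for stroma and muscle, were found in 76.0%, 86.5% and 72.9%. A cell detected 9 to 78 of the 96 transcripts, with a median of 54. In 8 cells, called low-Gapdh cells below, the Ct of the reference transcript Gapdh was above 18 or missing, and they detected 9 to 30 transcripts. Cell 67 is among them, with no value in the first 71 assays of the table, which hold 6 of the 8 integrins. Only its Itga3 and Itga6 were measured.

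Itgb1, Itga6 and Itga3 were the integrins of most cells, whereas Itga2, Itgb3 and Itga1 were each found in a minority. Of the 8 integrins, 3 were detected in at least 50% of cells, where 55.2% of all 96 assays were. Only Itga1 was found in under 10% of cells, as were 10.4% of assays, and none of the 8 in at least 90%, where 10.4% of assays were. Of the 768 integrin values, 332 (43.2%) were detected, against 52.6% of the values of the whole panel. The share of cells was 85.4% for Itgb1 (82 of 96, interval 76.7 to 91.8%), 70.8% for Itga6 (68 cells, interval 60.7 to 79.7%) and 65.6% for Itga3 (63 cells, interval 55.2 to 75.0%). It was 46.9% for Itga5 (45 cells, interval 36.6 to 57.3%) and 35.4% for Itgae (34 cells, interval 25.9 to 45.8%). The lowest shares were 20.8% for Itga2 (20 cells, interval 13.2 to 30.3%), 12.5% for Itgb3 (12 cells, interval 6.63 to 20.8%) and 8.33% for Itga1 (8 cells, interval 3.67 to 15.8%). The intervals of every pair of neighbours in this order overlapped. Because the subunits were measured in the same cells, the order can also be read from cells that held only 1 of the pair. Itgb1 without Itga6 was seen in 16 cells and the reverse in 2, and Itga3 without Itga5 in 27 cells and the reverse in 9. Cell 67, where neither Itgb1 nor Itga5 was measured, counts among the 2 and among the 27. Itga6 without Itga3 was seen in 13 cells and the reverse in 8, a difference of 5 cells that leaves their order unsettled.

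**Figure D1:**
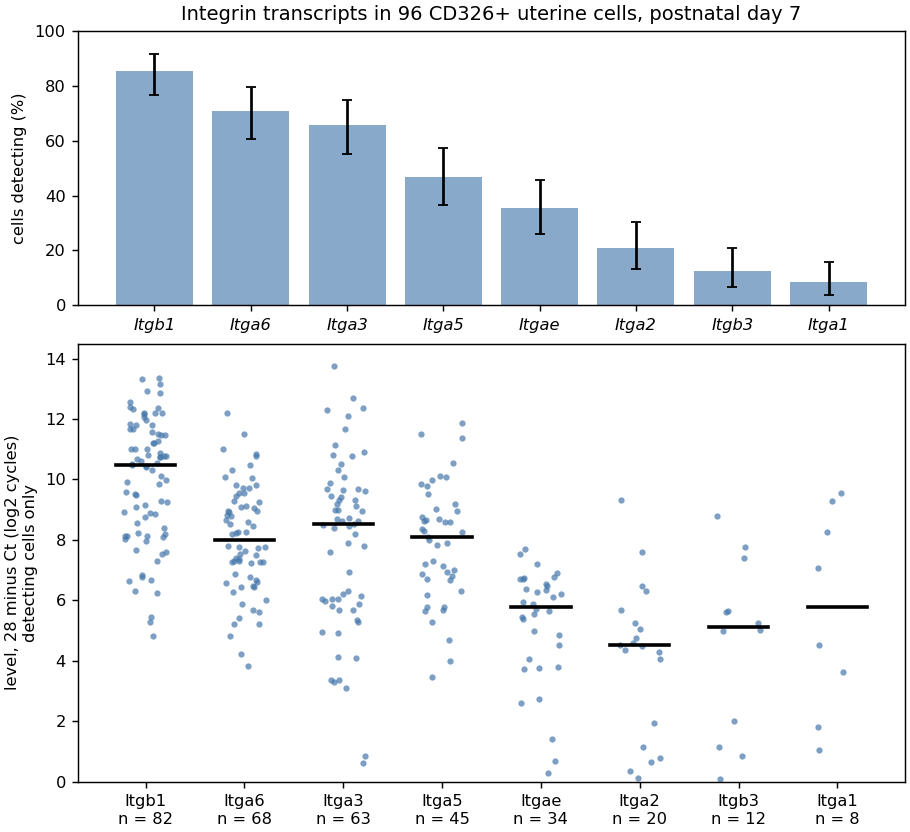
Top, the percentage of 96 cells that detected each integrin, as bars with exact 95% intervals. Bottom, the level (28 minus Ct) in each detecting cell as a point, with the median as a line. Itgb1 was found in 82 cells at a median level of 10.46, and Itga1 in 8 cells at 5.79.

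Promoter sequences of the most and the least widely detected member are shown to set them side by side, from RefSeq (GRCm38.p6, 250 bases before to 50 after the start of the gene, both 5′ to 3′ on the strand of the gene). The Itgb1 window is chr8:128685404-128685703 on the plus strand, and the Itga1 window is chr13:115101915-115102214 on the minus strand. Capitals mark each CG dinucleotide, which reads the same on both strands.
Itgb1: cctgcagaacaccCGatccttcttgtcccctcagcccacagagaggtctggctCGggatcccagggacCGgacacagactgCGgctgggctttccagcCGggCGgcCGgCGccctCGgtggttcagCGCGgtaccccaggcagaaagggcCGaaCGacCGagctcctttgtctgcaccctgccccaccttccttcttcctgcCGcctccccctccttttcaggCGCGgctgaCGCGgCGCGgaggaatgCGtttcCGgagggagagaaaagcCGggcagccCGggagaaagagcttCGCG
Itga1: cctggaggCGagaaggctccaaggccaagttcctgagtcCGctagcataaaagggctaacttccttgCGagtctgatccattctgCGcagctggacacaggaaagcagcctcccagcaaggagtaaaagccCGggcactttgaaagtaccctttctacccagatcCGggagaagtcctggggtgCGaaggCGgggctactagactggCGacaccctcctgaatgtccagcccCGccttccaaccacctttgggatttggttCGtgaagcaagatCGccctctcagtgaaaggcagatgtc
The Itgb1 window holds 27 CG dinucleotides and the Itga1 window 12, where the median of 32851 mouse promoter windows of the same length is 7 (quartiles 3 and 20). Fewer CG dinucleotides than in the Itgb1 window were found in 84.5% of those windows, and fewer than in the Itga1 window in 60.4%. The sequence GGGCGG, read on both strands, occurs 1 time in the Itgb1 window and 0 times in the Itga1 window, and at least 1 time in 35.7% of all windows. These are descriptions of sequence, since the data hold no measurement at a promoter. Windows were given for 5 of the 8 integrins (also Itga2, Itga3 and Itga5), with 13 CG dinucleotides for Itga2, 13 for Itga5 and, at its 2 listed starts, 24 and 5 for Itga3.

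Levels followed roughly the same order as shares, with exceptions. The Itgb1 level ranged from 4.80 to 13.36 in its 82 cells, with a median of 10.46 and a mean of 9.95 ± 2.06 (SD). All 82 cells stayed detected when the Ct limit was lowered to 24, so none lay near the limit. Itga6 ranged from 3.83 to 12.19 (median 8.00, mean 8.02 ± 1.79 in 68 cells). It kept 67 of the 68 cells at a Ct limit of 24. Itga3 varied more, from 0.61 to 13.75 (median 8.51, mean 7.88 ± 2.86 in 63 cells). Its highest cell lay above the highest Itgb1 cell, and 57 of the 63 cells remained at the lower limit. Itga5 was found in fewer cells than Itga3 but at a median of 8.08, within its spread (range 3.47 to 11.87, mean 7.91 ± 1.94 in 45 cells).

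The rarer subunits came at lower levels. Itgae ranged from 0.29 to 7.68 (median 5.79, mean 5.22 ± 1.90 in 34 cells), and 26 cells remained at a Ct limit of 24. No Itgae level reached the median of Itga6, Itga3 or Itga5. Itga2 levels fell into separate ranges, 6 cells with levels up to 1.93 and 14 cells with levels from 4.05 to 9.32, around a median of 4.50. Itgb3 levels, in ascending order, were 0.081, 0.85, 1.14, 2.00, 4.99, 5.00, 5.24, 5.62, 5.65, 7.40, 7.75 and 8.81, and a further 5 cells had a recorded Ct of 28 or above that counted as undetected. The 8 Itga1 levels were 1.03, 1.80, 3.62, 4.53, 7.06, 8.26, 9.28 and 9.56, so that its rarity did not go with uniformly low levels. The medians of Itgae, Itga1, Itgb3 and Itga2, from 4.50 to 5.79, differ by less than the SD of any of them.

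The number of integrins in a cell followed the number of transcripts detected. A cell held a median of 4 integrins of 8 (mean 3.46 ± 1.66, SD over 96 cells). None were detected in 4 cells, 1 in 10 cells, 2 in 16, 3 in 13, 4 in 23, 5 in 22, 6 in 7 and 7 in 1 cell (cell 44). The median number of transcripts detected was 25 in the cells with no integrin, 56 in those with 4 and 62 in those with 6. Over the 96 cells the number of integrins and the number of transcripts, which includes them, had a Spearman rho of 0.63. All 8 integrins were found more often in the 48 cells with a Gapdh Ct below its median of 13.4 than in the other 48, as were 90.6% of all assays. The share in the lower-Ct cells was 62.5% for Itga5, against 31.2% in the others, and it was 97.9% for Itgb1, against 72.9%. For Itga3 it was 72.9%, against 58.3%. A difference of at least 20 percentage points was seen for 3 of 8 integrins and for 44.2% of assays.

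**Figure D2:**
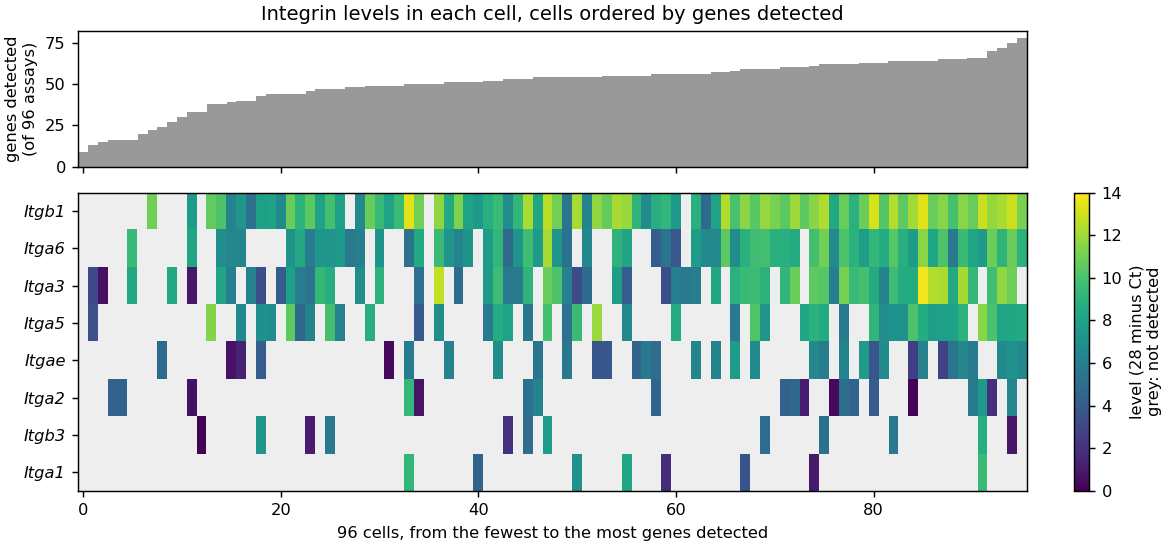
Each column is 1 of the 96 cells, ordered by the number of transcripts detected (bars, top). Colour gives the level (28 minus Ct) of each integrin and grey a transcript not detected. Itgb1 is missing mainly from the shallowest cells, while gaps in Itga5, Itgae and Itga2 run through cells of all depths.

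Itgb1, the shared beta subunit, was found together with at least 1 of its 5 measured alpha partners in 79.2% of cells (76 of 96, interval 69.7 to 86.8%). Itgb1 with none of them was found in 6 cells (6.25%, interval 2.33 to 13.1%), and a partner alpha without Itgb1 in 8 cells (8.33%, interval 3.67 to 15.8%). Of the 82 cells with Itgb1, 34 held 3 partners, 20 held 2, 12 held 1, 10 held 4 and none held all 5. Among the 14 cells without Itgb1, 6 held no partner, 6 held 1 and 2 held 2. Of these 14 cells, 8 were the low-Gapdh cells, none of which had a detected Itgb1, and the other 6 detected 24 to 56 transcripts. In cell 67, a low-Gapdh cell, Itgb1 was not measured. Cell 67 counts among the 2 cells with 2 partners and no Itgb1. The median was 55 transcripts in cells with Itgb1, against 22 in those without it. Of the 8 cells with a partner alpha and no Itgb1, 3 remained without the low-Gapdh cells (3.41% of 88). In those, cells 6, 20 and 83, a single integrin was detected in each.

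**Figure D3:**
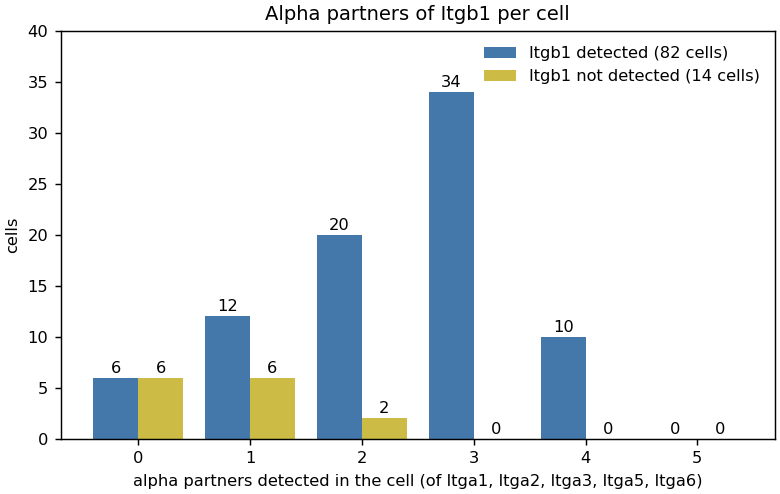
Number of cells (y axis) by the number of alpha partners detected in the cell (x axis, of Itga1, Itga2, Itga3, Itga5 and Itga6). Blue bars are the 82 cells with Itgb1, which peak at 3 partners (34 cells), and yellow bars the 14 without it, none of which held more than 2. The 14 include cell 67, where Itgb1 was not measured.

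The most frequent combination in cells with Itgb1 was Itga3, Itga5 and Itga6 together, with no collagen receptor alpha, in 24 of 82 cells (29.3%). Itga3 with Itga6 alone followed in 13 cells (15.9%), and all 4 of Itga2, Itga3, Itga5 and Itga6 in 7 cells (8.54%). Itga6 was the only partner in 5 cells, Itga5 in 4, Itga3 in 2 and Itga1 in 1. Each alpha was found mostly in cells that also held Itgb1. That was so for 66 of 68 cells with Itga6 (97.1%), 44 of 45 with Itga5 (97.8%), 58 of 63 with Itga3 (92.1%), 18 of 20 with Itga2 (90.0%) and 8 of 8 with Itga1. In cells without the alpha, Itgb1 was in 57.1% (Itga6), 74.5% (Itga5), 72.7% (Itga3), 84.2% (Itga2) and 84.1% (Itga1). The 24 assays with a share within 10 percentage points of that of Itgb1 came close to it. Their median shares were 91.9% in Itga6 cells, 93.3% in Itga5, 88.9% in Itga3, 85.0% in Itga2 and 87.5% in Itga1 cells. Conversely, Itgb1 cells held Itga6 in 80.5%, Itga3 in 70.7%, Itga5 in 53.7%, Itga2 in 22.0% and Itga1 in 9.76%. Itgae, whose product does not pair with that of Itgb1, was found with it in 33 of 34 cells (97.1%). Of the other 7 integrins, 4 were at least 20 percentage points more frequent in cells with Itgb1 than without it, as were 66.3% of 95 assays.

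The laminin receptor alphas Itga3 and Itga6 were found together in most of the cells that held either. Both were detected in 57.3% of cells (55 of 96, interval 46.8 to 67.3%), which is 87.3% of the Itga3 cells and 80.9% of the Itga6 cells. At least 1 of them was found in 76 cells (79.2%). Itga6 was detected in 87.3% of cells with Itga3, against 39.4% of those without it. Beside Itga6, 16 assays had a share within 10 percentage points of that of Itga6, and in the Itga3 cells these had a median share of 77.0% and a highest of 87.3%. Of the 7 other integrins, 2 (Itga5 and Itga6) were at least 20 points more frequent with Itga3, as were 15.8% of 95 assays. With Itga6, 3 of the 7 others were 20 points higher (Itgb1, Itga3 and Itga5), as were 42.1% of assays, and none was 20 points lower, where 1.05% were. In the 55 cells with both, levels were related at a Spearman rho of 0.69 and a Pearson r of 0.62. With the Gapdh level of the cell held constant, rho was 0.49. Cell 67, where Gapdh was not measured, entered that value at a Gapdh Ct of 40. Without cell 67, the rho with no account of Gapdh was 0.70 in 54 cells. These are descriptions over cells that share a plate and differ in content. The Itga3 level minus the Itga6 level ranged from -7.41 to 4.14 with a median of 0.42, and Itga3 was the higher in 30 of the 55 cells. Cells with both had a median of 56 transcripts, those with Itga6 alone (13 cells) 54, those with Itga3 alone (8 cells) 41.5 and those with neither (20 cells) 46.5. The median Itga3 level was 8.73 beside Itga6 and 3.75 in the 8 cells without it.

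**Figure D4:**
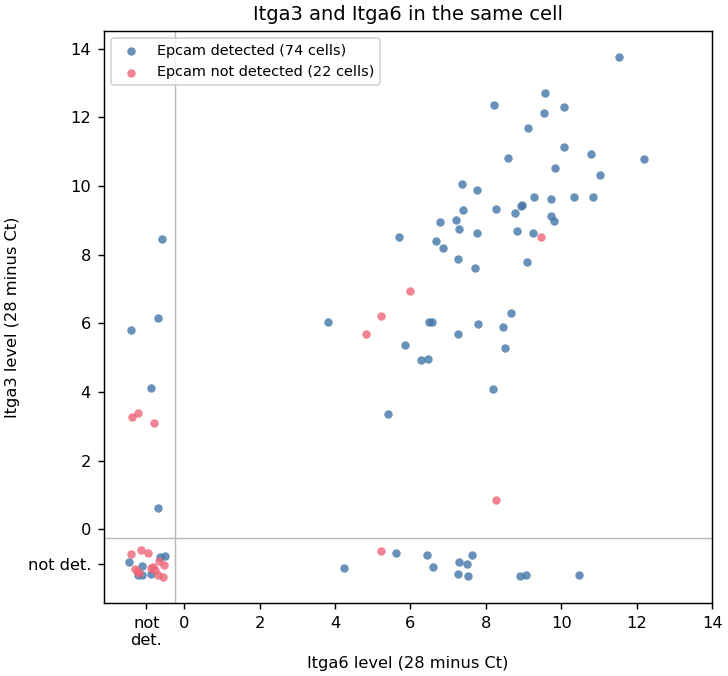
Level of Itga6 (x axis) against that of Itga3 (y axis) in each of 96 cells, with cells that did not detect a transcript in the strips at the left and bottom, spread at random within the strip. Blue cells detected Epcam and red cells did not. Of the 55 cells with both integrins 50 are blue, and of the 20 with neither 7 are. Cell 67, red with both integrins, had no measured Epcam.

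The collagen receptor alphas Itga1 and Itga2 were found together in 2 cells (2.08%, interval 0.25 to 7.32%), with Itga2 in 25.0% of Itga1 cells, against 20.5% of the others, and at least 1 of them in 26 (27.1%). Of those 26 cells, 22 also held Itga3 or Itga6, at least 1 of which was in 79.2% of all 96 cells. Itga2 cells held Itga6 in 17 of 20 (85.0%), against 67.1% of the cells without Itga2, and Itga3 in 13 of 20 (65.0%), against 65.8%. Itga1 cells held Itga3 or Itga6 in 7 of 8. No integrin was 20 points higher with Itga1 or with Itga2, where 20% and 6.32% of assays were, and none was 20 points lower with Itga1, where 7.37% were.

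Itga5, the alpha subunit of the fibronectin receptor, was found beside the laminin receptor alphas in most of its cells, 40 of 45 with Itga3 or Itga6. At least 1 of these alphas was in 79.2% of all cells. Itga3 was in 80.0% of Itga5 cells, against 52.9% of the rest, and Itga6 in 82.2%, against 60.8%. Itgb3, which was rare, lay almost entirely within the Itga5 cells. Of its 12 cells 11 (91.7%) held Itga5, against 40.5% of the 84 without Itgb3. Read the other way, Itgb3 was in 24.4% of Itga5 cells and in 1 of the 51 others (1.96%). Itgb3 was thus at least 20 points more frequent in cells with Itga5, along with 3 other integrins (Itga3, Itga6 and Itgb1) and 17.9% of 95 assays. None of the 7 was 20 points lower, where 1.05% were. Without the low-Gapdh cells Itgb3 (25.0%, against 2.27%) and Itga3 (79.5%, against 56.8%) still passed 20 points. Itga6 (84.1%, against 68.2%) and Itgb1 (100%, against 86.4%) did not. With Itgb3, 2 of the 7 others were 20 points higher (Itga5 and Itga3), as were 10.5% of assays, and none 20 points lower, where 4.21% were. Without the low-Gapdh cells Itga5 still passed 20 points (91.7%, against 43.4%), but Itga3 did not (83.3%, against 65.8%). The depth of the cells was alike, with a median of 53.5 transcripts with Itgb3 and 54 without it. Products of Itga5 and Itgb3 are not known as partners of each other. The 1 Itgb3 cell outside Itga5, cell 50, had the lowest Itgb3 level, 0.081. With any recorded Ct counted as detected, Itgb3 was in 17 cells, and 13 of them held Itga5.

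Splits of the cells by other transcripts describe where integrins were found. Each compares cells of the same plate. Cell 67 had no measured Epcam, Wnt7a, Eng, Ptprc, Sox9, Cdh1, Mki67 or Cd9. That cell counts as without each of them, with Itga3 and Itga6 detected. Cells that detected Epcam carried the laminin receptor alphas far more often. Itga6 was in 83.8% of 74 Epcam cells (62 cells, interval 73.4 to 91.3%), against 27.3% of 22 cells without Epcam (6 cells, interval 10.7 to 50.2%). Itga3 was in 74.3%, against 36.4%, and Itgb1 in 90.5%, against 68.2%. These 3 of the 8 integrins were at least 20 points higher, as were 33.7% of 95 assays, and none of the 8 was 20 points lower, where 2.11% were. The Itgb1 difference fell under 20 points without the low-Gapdh cells (95.7% with Epcam, against 83.3%) and in the cells with all 3 reference transcripts (92.9%, against 85.7%). The Itga6 difference of 56.5 points was the fifth largest of 95 assays, whose median difference was 12.4 points. Epcam cells also had more transcripts, a median of 55.5 against 46. Without the low-Gapdh cells Itga6 was in 88.6% of Epcam cells, against 27.8% of the others, and Itga3 in 77.1%, against 33.3%. Among cells with all 3 of Gapdh, actin and Hprt it was in 89.3% of 56 Epcam cells, against 42.9% of the 7 others. Itga5 was in 48.6% with and 40.9% without Epcam, Itgae in 36.5% and 31.8%, and Itgb3 in 12.2% and 13.6%. Levels in the detecting cells went the same way, with an Itga6 median of 8.21 in Epcam cells, against 5.61, and an Itga3 median of 8.73, against 4.53.

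Wnt7a, a WNT ligand gene of the luminal uterine epithelium, gave a similar split. Itga6 was in 94.2% of 52 Wnt7a cells (interval 84.1 to 98.8%), against 43.2% of 44 without it (interval 28.3 to 59.0%), and Itga3 in 84.6%, against 43.2%. With Itgb1 these were 3 of 8 integrins at least 20 points higher, as were 31.6% of assays, and none was 20 points lower, where 2.11% were. The Itgb1 share was 96.2% with Wnt7a, against 72.7% without it, and without the low-Gapdh cells it was 96.2%, against 88.9%, no longer 20 points apart. In cells that detected Gapdh, actin and Hprt, Itga6 was in 95.9% of those with Wnt7a, against 42.9% of 14 without it. Of the 20 cells with neither laminin alpha, 1 had Wnt7a (5.00%), while 42 of the 55 with both had it (76.4%).

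Eng, which encodes a co-receptor of the TGF-beta family in endothelium and stroma, split the integrins in the other direction. Itga6 was in 38.5% of 13 Eng cells (interval 13.9 to 68.4%), against 75.9% of 83 without it (interval 65.3 to 84.6%), and Itga3 in 46.2%, against 68.7%. Itga5 was in 76.9% of Eng cells (interval 46.2 to 95.0%), against 42.2%, and Itgb3 in 38.5% (5 cells), against 8.43%. Thus 2 of 8 integrins were at least 20 points higher and 2 at least 20 points lower, where 17.9% and 11.6% of assays were. Cells with and without Eng both had a median of 54 transcripts. Without the low-Gapdh cells Itga6 was in 38.5%, against 82.7%. In the cells with all reference transcripts, which include 7 Eng cells, Itga6 was in 71.4%, against 85.7%. Cells with Itgb3 detected 4 to 9 of 10 markers of other cell types (median 5.5), with a summed level of 34.5 to 81.1, and cells without Itgb3 detected 0 to 8 (median 5), with a summed level of 0 to 75.6. The part of other cell types in these values was not tested.

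**Figure D5:**
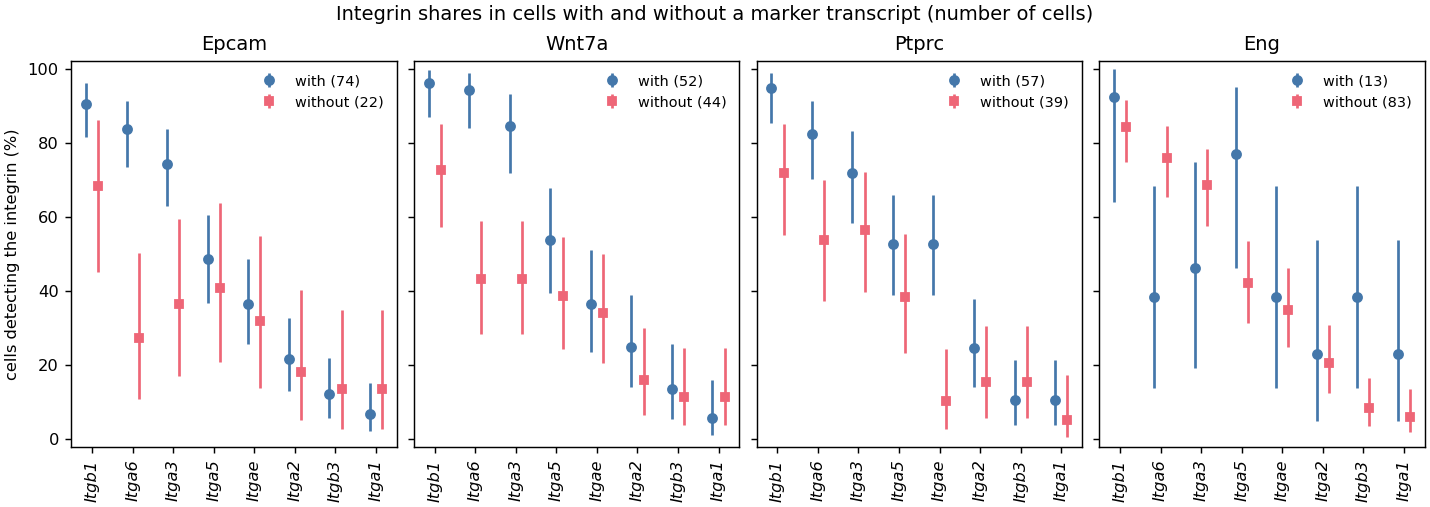
Percentage of cells that detected each integrin (y axis), with exact 95% intervals, in cells with (blue circles) and without (red squares) Epcam, Wnt7a, Ptprc and Eng. Itga6 is at 83.8% with Epcam and 27.3% without it, Itgae at 52.6% with Ptprc and 10.3% without it, and Itga6 at 38.5% with Eng and 75.9% without it. Cell 67, where these markers were not measured, counts as without each of them.

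Itgae followed Ptprc, the CD45 gene of leukocytes, more than any other split tried. It was in 52.6% of 57 Ptprc cells (30 cells, interval 39.0 to 66.0%), against 10.3% of 39 without Ptprc (4 cells, interval 2.87 to 24.2%). The difference of 42.4 points ranked the fourth largest of 95 assays (median 16.3 points). In all, 3 of 8 integrins (Itgae, Itga6 and Itgb1) were at least 20 points higher, as were 35.8% of assays. Without the low-Gapdh cells Itgae was in 52.6% with Ptprc, against 12.9%, whereas Itga6 (82.5%, against 64.5%) and Itgb1 (94.7%, against 90.3%) were no longer 20 points apart. Ptprc cells had a median of 56 transcripts, against 44. In the cells with all reference transcripts Itgae was in 52.4% with Ptprc, against 4.76% of 21 without it. Cdh1 (E-cadherin, the ligand of the Itgae product) was in 33 of the 34 Itgae cells (97.1%) and in 88.5% of all cells, and 25 cells held Itgae, Ptprc and Epcam together. The cells with Itgae detected 3 to 6 of the 6 epithelial markers, with a summed level of 17.4 to 81.8, and 3 to 7 of 10 markers of other types, with a summed level of 27.8 to 69.7. Cells without Itgae detected 1 to 6 and 0 to 9 of them, with summed levels of 5.50 to 82.3 and 0 to 81.1. The part of leukocytes in these values was not tested. Itgae was also more frequent in cells with the basal keratin gene Krt15 (48.2%, against 17.5%), the only 1 of 8 integrins to reach 20 points there, where 22.1% of assays did.

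Further splits were made by Sox9, Esr1, Cdh1 and Mki67. With Sox9, a progenitor and gland regulator gene, 1 of 8 integrins was at least 20 points higher, as were 12.6% of assays. It was Itga6, in 84.2%, against 62.1%. Without the low-Gapdh cells Itga6 was in 88.9%, against 67.3%, but with all reference transcripts in 89.7%, against 79.4%. With Esr1, the estrogen receptor gene, 3 of 8 were at least 20 points higher (Itgb1, Itgae and Itga6), as were 31.6% of assays. Itga3 was in 63.5% of Esr1 cells, against 72.7% of those without it. That difference was the lowest of all 95 assays, whose median was 15.6 points higher with Esr1. Without the low-Gapdh cells none of the 3 was 20 points higher: Itgb1 was in 94.4% with Esr1, against 87.5%, Itgae in 41.7%, against 25.0%, and Itga6 in 76.4%, against 75.0%. Itga3 was then in 63.9%, against 87.5% of the 16 cells without Esr1. With all reference transcripts Itga6 was in 84.0% with Esr1, against 84.6%, while Itgae was in 42.0%, against 15.4%, more than 20 points apart. With Cdh1, found in 85 cells, 4 of 8 integrins were 20 points higher, as were 51.6% of assays, and 1 was 20 points lower (Itga1, 5.88% against 27.3% of 11 cells), as were 4.21%. Without the low-Gapdh cells only 6 cells lacked Cdh1, and Itgb1, at 89.4% with Cdh1 against 54.5% in all cells, was then at 92.7%, against 100%. With Mki67, a gene of cycling cells, no integrin reached 20 points, where 14.7% of assays did, and Itga2 came nearest, in 34.5% of 29 Mki67 cells, against 14.9% of 67 others. Without the low-Gapdh cells Itga2 passed 20 points, at 34.5%, against 13.6%.

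Levels across all 96 cells, with undetected cells at 0 and a linear fit on the number of detected transcripts removed, were compared between genes. Over 85 other genes found in at least 10% of cells, the highest Spearman rho for Itga6 was with the keratin gene Krt18 (0.62, Pearson r = 0.58), then Wnt7a (0.59, r = 0.52) and Cdh1 (0.58, r = 0.48). For Itga3 it was with Krt18 (0.56, r = 0.52), Itga6 (0.56, r = 0.57) and Wnt7a (0.47, r = 0.43), and the lowest was with Esr1 (-0.42, r = -0.31). Without the fit on detected transcripts, the Itga3 rho was 0.0013 with Esr1 and 0.71 with Krt18, so the negative value was seen only after the fit. Over the 6 epithelial markers the rho with Itga6 ran from 0.15 (Krt8) to 0.62 (Krt18), with a median of 0.44, against a median of 0.0031 over the 85 genes. With Itga3 it ran from 0.13 (Krt8) to 0.56 (Krt18), with a median of 0.37, against -0.026 over the 85 genes. The fit takes out what genes share with the number of detected transcripts, which counts these same assays. The low medians over the 85 genes are therefore not an independent background. Itgb1 went with Cd164, a sialomucin gene (0.64, r = 0.51), Ctnnb1, the beta-catenin gene (0.50, r = 0.39), and actin (0.50, r = 0.40). Itga5 went with the WNT receptor gene Fzd7 (0.50, r = 0.48), the T-box gene Tbx3 (0.40, r = 0.36) and Cd44, a hyaluronan receptor gene (0.35, r = 0.33). For Itgae no rho was above 0.26, and that with Ptprc was 0.19 (r = 0.27). For Itga2 and Itgb3, found in few cells, the highest rho values, Itga2 with Hoxa10 at 0.46 and Itgb3 with Eng at 0.65, stood beside r of 0.064 and 0.32. Itga2 and Hoxa10 were both detected in 5 cells. The median absolute rho over all 3655 pairs of 86 genes was 0.12. Over the 21 pairs of integrins the median rho was 0.054, against 0.031 over all pairs. Itga3 with Itga6 had the highest rho of those 21 pairs, with 55 cells detecting both. Itga6 with Itgb1 (0.43, r = 0.30) and Itga5 with Itgb1 (0.32, r = 0.32) were detected together in 66 and 44 cells. For Itga2 and Itgb3, detected together in 3 cells, rho was 0.44, r was 0.14 and rho without the fit on detected transcripts was 0.072. By r the second pair was Itga5 with Itgb3 (0.35, rho 0.25, 11 cells with both).

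Of 37 genes listed as integrin partners, ligands, linkers or neighbours, 7 were measured. Of these, 5 were found in at least 50% of cells, where 55.2% of all 96 assays were. Cd9, a tetraspanin gene whose product associates with beta 1 integrins at the surface, was detected in 77 cells (80.2%), Cd44 in 77 and Cdh1 in 85. Cd9 was in 62 of 68 Itga6 cells (91.2%) and in 55 of 63 Itga3 cells (87.3%). Itga6 was in 80.5% of Cd9 cells, against 31.6% of the 19 without Cd9. It was 1 of 3 integrins at least 20 points higher with Cd9 (Itgb1 and Itga3 were the others), as were 43.2% of assays. Itgb1 was in 92.2% with Cd9, against 57.9%, but without the low-Gapdh cells in 94.7%, against 84.6%, under 20 points apart. Over all cells none was 20 points lower, where 3.16% were. Pecam1 was detected in 93 cells and Thy1 in 17. Of the basal epithelial genes, Krt15 was detected in 56 cells and Trp63, which encodes a transcription factor of basal cells, in 6. All 6 Trp63 cells held both Itga6 and Itgb1, which were in 70.8% and 85.4% of all cells, and Trp63 cells had a median of 63.5 transcripts, against 53.5 in the others.

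In share of cells, Itgb1 stood beside Kit (81 cells) and Nt5e (83), Itga6 beside Cd40 (68), and Itga3 beside Enpep, Ezh2 and Gja1 (62 each). Itga5 (45 cells) stood beside Pax2 (43) and Il17ra (48), and Itgae (34) beside Hoxa13 and Hopx (36 each). Itga2 shared its 20 cells in number with Lgr5, an R-spondin receptor gene of stem cells, and 17 of the 20 Lgr5 cells held Itga6 (85.0%). Itga6 was in 70.8% of all cells, and cells with Lgr5 had a median of 59 transcripts, against 52 in the others. Itgb3 (12) stood beside Eng (13) and Hoxa10 (11), and Itga1 (8) beside Foxa2 and Pou5f1 (7 each).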

How the data were processed

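Cells of the postnatal day 7 uterus were digested with collagenase, sorted 1 to a well on CD326 and preamplified with a 1-step kit, and 96 assays were run with EvaGreen on a Fluidigm chip, per the labels' protocols. The authors deposited raw Ct values (used here as a score), per the file headers, with 40 where no Ct was recorded. The deposited fold-change ratio table is relative to a housekeeping gene and to cell 1, per the file headers; with Gapdh in that role, recomputation for the integrins gave it to within 3.87e-06 on the log2 scale. The labels name no baseline, threshold, quality filter or primer, and product from a related gene or from genomic DNA cannot be told apart from the transcript.

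All 96 cells were kept and none removed as doublets. Detection was a Ct below 28, as in earlier work on these data, and 10 integrin values recorded at 28 or above counted as undetected. Depth is the number of detected transcripts per cell. The precision of a share is that of 96 cells. Splits counted a difference of 20 points. The ranking of like genes was tested on simulated data. The members, lists, rules and splits were chosen with earlier results of these data known; splits by Cdh1, by Cd9 and by each integrin, the classes of cells by laminin receptor alpha and the promoter counts were added later. The genes named were the 8 integrins, measured members of the marker and related lists, the reference transcripts, the split markers, the 3 most alike genes for each integrin, and genes nearest in share, not all of which are printed. Alternatives were other Ct limits, other sets of cells and other level scales. Gene symbols come from RefSeq names (GRCm38.p6). The tools were scipy 1.17.1, numpy 2.4.6, pandas 2.3.3 and matplotlib 3.10.9, run under Python 3.11.15.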

Additional observations from a re-analysis of the deposited data

How the results depend on the processing

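Of 63 values of the main results (integrins per cell, integrins in at least 50% of cells, Itgb1 with and without partners, both laminin and both collagen receptor alphas) under 9 alternatives, 57 kept to the interval of the value (for counts, 1.5 times it, and for medians, 1 SD), and 6 moved. The share of cells with Itgb1 and a partner, 79.2%, was 87.3% in cells that detect Gapdh, actin and Hprt and 88.4% without the 10% of cells with the fewest transcripts. The share with a partner and no Itgb1, 8.33%, was 2.33% without those 10% and 3.41% without the low-Gapdh cells. The share with both laminin receptor alphas, 57.3%, was 71.4% with all reference transcripts and 67.6% with Epcam. The settings without the fewest transcripts or without low Gapdh leave out shallow cells by construction; for the others the cause was not tested. Ct limits of 24 and 26 moved none of them. Of 72 shares of single integrins, 66 stayed within their interval and 6 moved, all upward in sets of deeper or Epcam cells. The correlation of Itgb3 with Hoxa10 was -0.059 with Pearson r in place of a rho of 0.55, and the higher share of Itga6 with Esr1 became a difference of -0.62 points with all reference transcripts; the cause was not tested. No paired analysis was possible because all cells form 1 group, with no second group to match; subunits were compared within the same cells.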
